A study of Mus musculus with 9 samples.

Results

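Levels of 34 immediate-early and stress response genes were followed through brain cells of mice whose microglia had been depleted and were beginning to return. The genes were taken by symbol from the 31053 genes of the count tables, whatever their values: Fos, Fosb, Fosl2, Jun, Junb, Jund, Atf3 and Maff, whose proteins pair through leucine zippers, Egr1, Egr2 and Egr3, Klf2, Klf4, Klf6 and Klf10, Myc, Hes1, Nr4a1 and Nr4a2, Ier2, Ier3 and Ier5, Gdf15, Dusp1 and Dusp2, Socs3, Zfp36 and Zfp36l1, Btg2, Gadd45b and Gadd45g, Rhob, Hspa1a and Hspa1b. All 34 were found. Cells positive for CD11b, a surface marker of myeloid cells, had been sorted from the brains of female C57BL/6 mice (C57BL/6J in the study's methods) aged 5 months, cerebellum removed, and sequenced with the 10x Genomics 3′ chemistry, which counts unique molecular identifiers (UMIs) as a measure of mRNA molecules per cell. Ctrl mice were naïve. The D0 group was fed PLX5622 at 1200 mg/kg of diet for 14 days, a compound that blocks CSF1R, the receptor on which microglia depend for survival. D2 mice had returned to control diet for 2 days after the same course. A Ctrl library held 1 brain, and a D0 or D2 library held a pool of 2 brains, so that the spread between Ctrl libraries was a spread between single animals and the other 2 were spreads between pools. Pooling went fully with group, so its part in any D0 or D2 difference from Ctrl cannot be told apart from that of treatment. There were 3 libraries of each group, and 8 of the 9 entered the tests: the study set the library D2-3 aside, and its values are given apart here.

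Immediate-early genes are transcribed within minutes of a stimulus by factors already present in the cell, and most of their mRNAs are short-lived. FOS and JUN proteins dimerise into the transcription factor AP-1, the EGR and NR4A proteins carry the signal to later genes, and the products of Dusp1, Dusp2, Socs3, Zfp36 and Zfp36l1 switch the same signals or mRNAs off again. HSP70, encoded by Hspa1a and Hspa1b, refolds damaged proteins after heat or oxidative stress. In brain myeloid cells these genes are also known to react to enzymatic digestion of the tissue at warm temperature, a step that every library here went through.

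The windows of 250 bases before the RefSeq start (build GRCm38.p6) are shown for 4 members: the near-identical Hspa1a and Hspa1b with a heat shock element, Zfp36 with a serum response element, and Fos with a TATA box, as a gene called in D0. Hspa1a lies at chr17:34969190-34972156 and Hspa1b at chr17:34956436-34959238, both on the minus strand and close to each other. Capitals mark the letters GAANNTTC, a pair of heat shock factor units, which begin 104 bases before both starts. In Fos (chr12:85473890-85477273, plus strand) the capitals mark TATAAA, 33 bases before the start, and in Zfp36 (minus strand of chromosome 7) they mark a CArG box, the site of serum response factor, 58 bases before it.

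Hspa1a, chr17:34972157-34972406, minus strand: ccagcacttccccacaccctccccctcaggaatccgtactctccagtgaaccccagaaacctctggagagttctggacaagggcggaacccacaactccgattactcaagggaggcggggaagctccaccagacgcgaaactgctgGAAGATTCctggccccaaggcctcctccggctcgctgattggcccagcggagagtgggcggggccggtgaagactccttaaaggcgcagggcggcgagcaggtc

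Hspa1b, chr17:34959239-34959488, minus strand: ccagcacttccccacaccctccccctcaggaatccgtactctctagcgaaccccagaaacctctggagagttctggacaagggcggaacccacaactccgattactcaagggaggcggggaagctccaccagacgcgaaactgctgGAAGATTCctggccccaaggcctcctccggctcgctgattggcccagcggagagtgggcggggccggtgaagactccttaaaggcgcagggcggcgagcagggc

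Fos, chr12:85473640-85473889, plus strand: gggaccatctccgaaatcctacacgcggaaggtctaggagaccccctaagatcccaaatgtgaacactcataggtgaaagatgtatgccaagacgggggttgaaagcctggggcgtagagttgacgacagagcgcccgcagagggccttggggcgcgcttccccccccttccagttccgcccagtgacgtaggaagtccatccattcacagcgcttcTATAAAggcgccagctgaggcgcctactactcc

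Zfp36, chr7:28379229-28379478, minus strand: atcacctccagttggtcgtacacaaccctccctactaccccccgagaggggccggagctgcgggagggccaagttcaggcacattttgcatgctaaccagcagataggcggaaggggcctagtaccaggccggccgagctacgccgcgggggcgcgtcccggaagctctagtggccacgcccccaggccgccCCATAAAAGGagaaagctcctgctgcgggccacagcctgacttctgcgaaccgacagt

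The Hspa1a and Hspa1b windows were the same at 247 of 250 bases (98.8%). Over whole transcripts, 58.8% of the 50-base words of Hspa1a also occurred in Hspa1b, and 62.3% the other way, but none of the 451 such words in the last 500 bases was shared. 3′ counting reads mostly the last part of a transcript, where these words tell the copies apart. Reads from further upstream may still have been dropped or divided between the copies, so that their separate levels remain uncertain. Of the 34 genes, 28 were matched to a promoter window, and Egr1, Egr3, Ier2, Klf10, Myc and Hes1 were not. On either strand, TATAAA was present in the windows of 5 matched members (Fos, Zfp36l1, Nr4a2, Gadd45b and Gadd45g), against 12.4% of all 32851 windows. The cAMP response element TGACGTCA was found in Dusp1, Btg2 and Maff, against 1.55% of all windows, and the CArG box in Egr2 and Zfp36, against 1.47%. GAANNTTC was found in Fosl2, Jun, Hspa1a and Hspa1b (6.69% of all windows) and the reverse arrangement TTCNNGAA in Egr2 and Gdf15 (7.17%). The AP-1 site TGACTCA was in none of the members' windows and in 4.46% of all windows.

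The 8 libraries held 20257894 to 61230741 UMIs and 2418 to 4980 cells after filtering. Clusters drawn without the 34 genes were named from fixed marker genes. Microglia-like cells, carrying P2ry12, Tmem119 and other microglial markers, numbered 1501 to 3788 per library, and border-associated macrophage-like, monocyte- or dendritic cell-like, neutrophil-like, endothelial-like and mural-like cells were also present, so that the labels' single name, microglia, did not cover all cells. D2-3 held 756 microglia-like cells, of which 71 lay outside the mitotic clusters. The 34 genes took 0.440% of its microglia-like UMIs against 1.38% to 2.32% in the other 8 libraries. No pair of libraries shared more than 7 cell barcodes. The file headers name Cell Ranger 3.1.0 for D2-3 and for every Ctrl library but Ctrl-1, and the older release 3.0.2 for all others, so that within the older release Ctrl is Ctrl-1 alone.

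The first question was which of the 34 genes differed in the microglia-like cells that remained on the inhibitor. Levels are given as scaled CPM, that is counts per 1000000 UMIs of the library's microglia-like cells after trimmed-mean (TMM) scaling. In D0 against Ctrl, 5 members rose (Fos, Fosl2, Ier2, Zfp36 and Nr4a2) and 4 fell (Jun, Jund, Rhob and Hes1) at an adjusted p under 0.05 in edgeR. Across all 12408 genes tested, 12.5% rose and 7.70% fell, so the members' counts lay near those of genes at large. Their median log2 change was 0.28, against -0.05 for all genes. In D2 against Ctrl, 3 members rose (Fosl2, Ier2 and Nr4a2) and 5 fell (Jun, Jund, Klf4, Rhob and Hes1), where 10.7% of all genes rose and 7.58% fell. The median there was -0.09 over the members and -0.03 over all genes. Both comparisons use the same Ctrl libraries. Without TMM scaling the median of all genes moved to -0.27 in D0, and 3 members rose and 7 fell, beside 1157 rising and 2772 falling genes in place of 1553 and 956. The 3 rises were Fosl2, Ier2 and Nr4a2, so that Fos and Zfp36 lost their calls, while Ier5, Klf4 and Gadd45g joined the falls. In sums of this kind, fewer transcripts per cell and fewer cells with the transcript cannot be told apart.

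**Figure D1:**
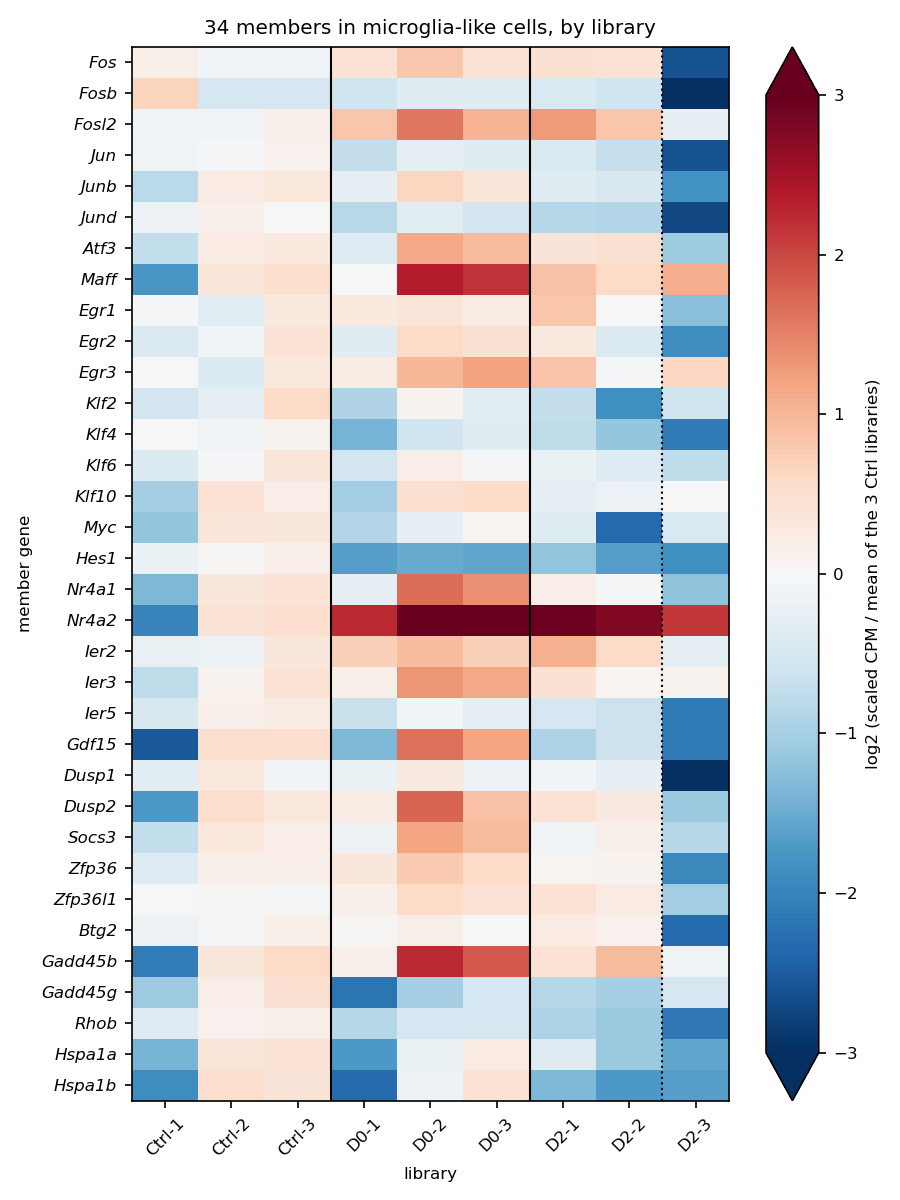
Heat map of the 34 genes (lines) in microglia-like cells of the 9 libraries (columns), as log2 of scaled CPM over the mean of the 3 Ctrl libraries, with colour ending at ±3. Nr4a2 stood high in all D0 and D2 libraries and Hes1 low in all of them, while Ctrl-1 and D0-1 were the lowest libraries of their groups for 28 and 31 genes.

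Among the AP-1 genes, Fos and Jun moved in opposite directions. Fos stood at 791, 664 and 656 scaled CPM in Ctrl-1, Ctrl-2 and Ctrl-3, at 930, 1234 and 939 in the D0 libraries, and at 962 and 957 in D2-1 and D2-2. All 5 treated libraries lay above all 3 Ctrl libraries in scaled CPM, though without TMM scaling Ctrl-1 (896 CPM) lay above D0-3 (874). The log2 change was 0.56 ± 0.14 (SE; adjusted p = 0.0206) in D0 and 0.45 ± 0.15 (adjusted p = 0.0707) in D2. Fosl2, which encodes the more slowly induced FOS-family member FRA2, was far scarcer, at 8.94 to 10.6 scaled CPM in Ctrl, 17.0, 28.4 and 19.6 in D0, and 23.0 and 16.9 in D2. Its groups did not overlap either, and it rose by 1.19 ± 0.21 in D0 (adjusted p = 0.00429) and 1.07 ± 0.23 in D2 (adjusted p = 0.0118).

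The JUN-family genes Jun and Jund fell. Jun was at 2758, 2927 and 3279 scaled CPM in Ctrl, 1825, 2423 and 2313 in D0, and 2228 and 1864 in D2. The highest treated library thus lay below the lowest Ctrl library. Jun fell by 0.45 ± 0.14 on the log2 scale in D0 (adjusted p = 0.0441) and by 0.55 ± 0.15 in D2 (adjusted p = 0.0365). Jund, the member of the family with the steadiest expression in resting cells, was at 1429, 1815 and 1628 in Ctrl, 913, 1288 and 1087 in D0, and 903 and 887 in D2. It fell by 0.57 ± 0.14 in D0 (adjusted p = 0.0225) and by 0.86 ± 0.16 in D2 (adjusted p = 0.00604), again without overlap. Both genes were lowest in the mitotic cluster 11 (Jun 1512 and Jund 607 CPM over all libraries). Without the mitotic clusters, which held at most 0.215% of Ctrl and 3.99% to 13.4% of D0 microglia-like cells each, the D0 change was -0.39 ± 0.13 for Jun (adjusted p = 0.0994) and -0.44 ± 0.15 for Jund (adjusted p = 0.0964).

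The remaining zipper genes did not pass the test in either comparison. Junb ranged from 1493 to 3243 scaled CPM in Ctrl and from 2130 to 4068 in D0. Atf3, an ATF-family repressor induced by stress, ranged from 452 to 922 in Ctrl and from 581 to 1664 in D0. Maff, a small MAF protein, was at 2.13, 9.21 and 10.1 in Ctrl and 7.04, 36.3 and 32.2 in D0 (log2 change 1.83 ± 0.62, adjusted p = 0.0658). D0-1 alone overlapped Ctrl in Maff. Fosb was high in Ctrl-1 alone, at 142 against 59.0 to 69.6 in the other 7 libraries.

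**Figure D2:**
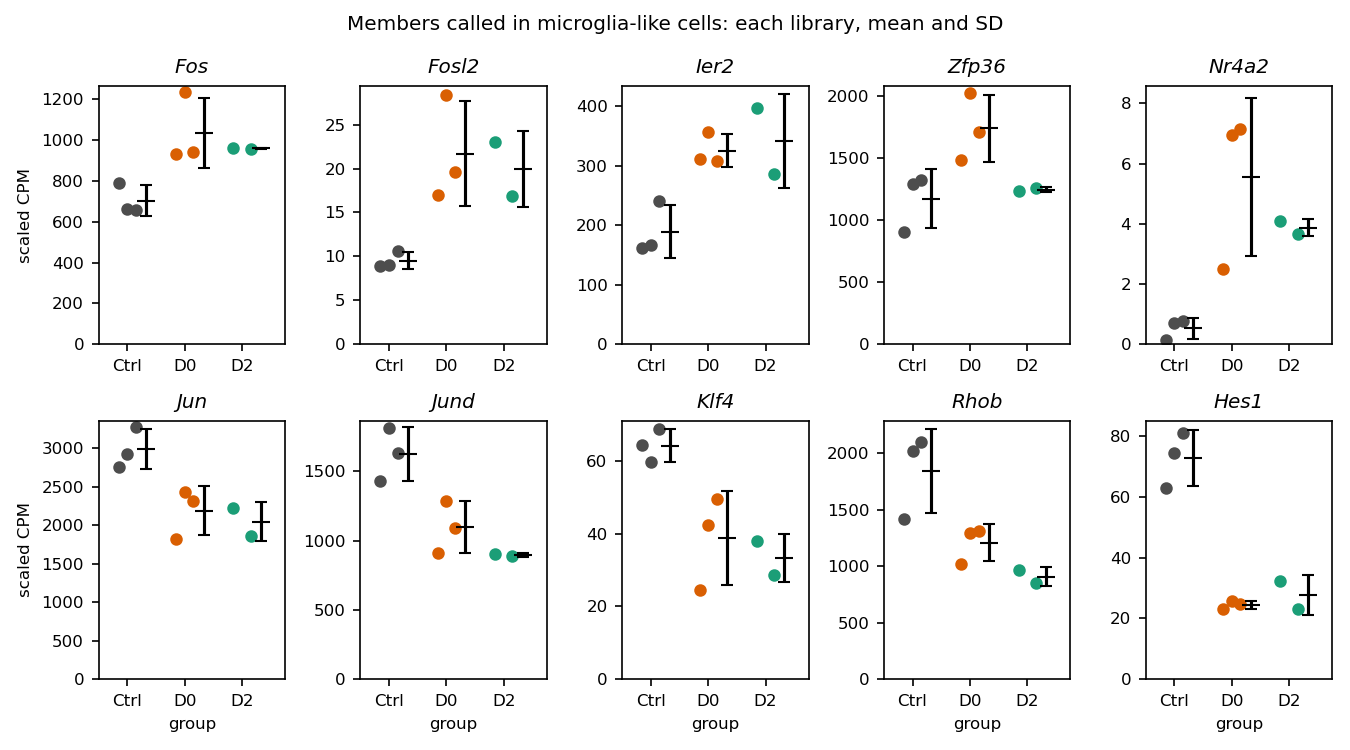
Scaled CPM of the 10 genes that passed the test in D0 or D2, each with its own axis from 0. Points are libraries of microglia-like cells (3 Ctrl, 3 D0, 2 D2) and bars are the mean and SD; the Hes1 points of D0 lie between 23.0 and 25.7, below every Ctrl point.

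Hes1 differed evenly across libraries. It encodes a repressor that acts downstream of Notch receptors. Its level was 62.9, 74.5 and 81.1 scaled CPM in Ctrl, 23.0, 25.7 and 24.8 in D0, and 32.3 and 23.1 in D2. The means were 72.8 ± 9.23 (SD, n = 3), 24.5 ± 1.33 (SD, n = 3) and 27.7 ± 6.51 (SD, n = 2). Hes1 fell by 1.57 ± 0.15 on the log2 scale in D0 (adjusted p = 0.000115) and by 1.39 ± 0.18 in D2 (adjusted p = 0.000641). In all 24 other settings of the analysis it kept its direction and stayed under the threshold in D0, at -1.78 to -1.36. The -1.36 came with the Cell Ranger release as a term, where D0 was in effect set against Ctrl-1 alone. Libraries of a group lay close together for this gene: the highest Ctrl library was 1.29 times the lowest and the highest D0 library 1.11 times. Ctrl-1 and D0-1 were still the lowest of their groups, as for most members.

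Nr4a2, an orphan nuclear receptor, was nearly absent from Ctrl microglia-like cells. It was read as 4, 14 and 20 UMIs in the Ctrl libraries, 46, 229 and 130 in D0, and 80 and 43 in D2, equal to 0.133, 0.708 and 0.756 scaled CPM, then 2.51, 6.96 and 7.16, then 4.08 and 3.67. No treated library overlapped Ctrl. The log2 change was 3.43 ± 0.55 in D0 (adjusted p = 0.00241) and 2.91 ± 0.60 in D2 (adjusted p = 0.00892). The D0 change ran from 2.51 to 5.33 over the 24 other settings, past the threshold in each. The 5.33 came with the Cell Ranger term, which rests on Ctrl-1 as its only Ctrl library. In D2 the change lost the threshold with no upper UMI limit and with all kept myeloid cells. Nr4a2 was far higher in monocyte- or dendritic cell-like cells, at a median of 102 CPM, and dendritic cell markers summed to between 42.3 and 54.6 CPM in Ctrl microglia-like cells, between 101 and 117 in D0 and between 94.3 and 114 in D2, with none of the 10 markers at 0. Monocyte markers summed to 24.0 to 30.7, 25.5 to 35.9 and 33.9 to 45.7 CPM, with none of the 14 at 0. Their part in the Nr4a2 difference was not tested. Its relative Nr4a1 was at 45.7, 147 and 154 scaled CPM in Ctrl and 95.1, 370 and 302 in D0, with overlap (log2 change 1.15 ± 0.51, adjusted p = 0.146).

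The EGR genes, zinc-finger factors induced by growth factor and ERK signals, did not pass. Egr1 was at 314, 256 and 393 scaled CPM in Ctrl, 395, 413 and 372 in D0, and 567 and 318 in D2. These libraries overlapped, and the log2 change was 0.29 ± 0.21 in D0 (adjusted p = 0.367). Egr2 ranged from 26.6 to 47.8 in Ctrl and from 28.2 to 53.7 in D0, and Egr3 from 25.1 to 41.8 and from 39.0 to 77.9. Among the Krüppel-like factors, Klf4 was at 64.3, 59.6 and 68.8 in Ctrl, 24.5, 42.3 and 49.6 in D0, and 37.9 and 28.6 in D2. It fell by 0.95 ± 0.26 in D2 (adjusted p = 0.0346) and was just short of the threshold in D0 (log2 change -0.73 ± 0.23, adjusted p = 0.0504), although no treated library reached Ctrl. Klf2 ranged from 174 to 392 in Ctrl, 140 to 281 in D0 and, in the D2 pair, 72.8 to 160, Klf6 from 280 to 475, 251 to 424 and 282 to 323, and Klf10 from 10.1 to 27.3, 9.88 to 29.5 and 16.6 to 17.9. Myc, the growth regulator, was at 24.4 to 72.1 in Ctrl, at most 58.5 in D0, and 43.2 and 11.1 in D2. None of these 4 passed the test.

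Of the immediate early response genes, Ier2 rose in both comparisons. It was at 161, 166 and 241 scaled CPM in Ctrl, 311, 357 and 308 in D0, and 397 and 286 in D2, without overlap. The log2 change was 0.78 ± 0.18 in D0 (adjusted p = 0.0162) and 0.85 ± 0.20 in D2 (adjusted p = 0.0168). Ier3 ranged from 255 to 579 in Ctrl and from 484 to 1083 in D0, and Ier5 from 770 to 1239 and from 673 to 1003. Gdf15, a secreted stress cytokine, spread widely within groups, at 25.0, 201 and 204 in Ctrl and 56.3, 453 and 324 in D0 (log2 change 0.96 ± 0.77, adjusted p = 0.414).

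The genes that restrain signalling or mRNA were mixed. Zfp36 encodes tristetraprolin, which destabilises AU-rich cytokine mRNAs. It was at 900, 1292 and 1323 scaled CPM in Ctrl, 1481, 2023 and 1707 in D0, and 1231 and 1259 in D2. D0 lay above Ctrl while D2 lay inside its range, and only the D0 change passed (0.57 ± 0.17, adjusted p = 0.0399; D2 0.09 ± 0.19, adjusted p = 0.783). Its relative Zfp36l1 was at 422 to 447 in Ctrl, 487 to 662 in D0, and 596 and 519 in D2, all above Ctrl, with an adjusted p of 0.0535 in D0 and 0.123 in D2. Without TMM scaling, Zfp36l1 in Ctrl-1 (504 CPM) lay above D0-1 (472). Dusp1, a phosphatase that turns off MAP kinases, hardly differed, at 249 to 387 in Ctrl and 269 to 372 in D0 (log2 change -0.02 ± 0.18, adjusted p = 0.956). Dusp2 was at 20.6, 98.6 and 85.7 in Ctrl and 80.3, 229 and 125 in D0 (adjusted p = 0.169). Socs3, a brake on JAK-STAT signalling, ranged from 163 to 342 in Ctrl and from 248 to 618 in D0.

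Of the growth arrest genes, Btg2 was steady, at 906 to 1137 scaled CPM in Ctrl, 1028 to 1145 in D0, and 1194 and 1111 in D2. Gadd45b was at 24.8, 135 and 162 in Ctrl and 118, 508 and 383 in D0 (log2 change 1.65 ± 0.65, adjusted p = 0.103). Gadd45g ran the other way, at 29.4, 72.7 and 86.9 in Ctrl, 13.9, 31.7 and 43.6 in D0, and 35.0 and 31.8 in D2 (D0 log2 change -1.08 ± 0.43, adjusted p = 0.109). Rhob encodes a small GTPase of endosomes whose mRNA is induced by growth factors and DNA damage. It stood at 1418, 2022 and 2095 in Ctrl, 1019, 1291 and 1310 in D0, and 968 and 847 in D2. Every treated library lay below Ctrl, and Rhob fell by 0.61 ± 0.17 in D0 (adjusted p = 0.0297) and by 1.02 ± 0.19 in D2 (adjusted p = 0.00549). Without the mitotic clusters the D0 value for Rhob was -0.49 ± 0.17 with an adjusted p of 0.0949.

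The heat shock genes gave no call. Hspa1a was at 393, 1332 and 1367 scaled CPM in Ctrl, 314, 905 and 1215 in D0, and 785 and 480 in D2. Hspa1b was at 167, 869 and 793, then 124, 551 and 818, then 240 and 184. Within Ctrl and within D0 the library numbered 1 was the lowest by more than 2-fold, and Ctrl and D0 overlapped. The log2 changes in D0 were -0.35 ± 0.52 for Hspa1a (adjusted p = 0.679) and -0.29 ± 0.66 for Hspa1b (adjusted p = 0.790).

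Between D2 and D0, no member and none of the 12408 genes passed in edgeR (0% rose and 0% fell). At an unadjusted p under 0.05 there were 823 genes, of which 1 was a member, Zfp36 (-0.48 ± 0.19). DESeq2 called 26 genes, none of them a member. It had 4 members under an unadjusted p of 0.05. The number of all genes under that p in DESeq2 is not given here, so the 4 are not set against genes at large. Of the 34 members, 5 had a positive log2 change, with a median of -0.33, against -0.01 over all genes.

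Other quantities of the microglia-like cells moved with the groups. Mitotic markers, 8 genes with none at 0, summed to between 10.3 and 19.1 CPM in Ctrl, between 593 and 689 in D0 and between 807 and 886 in D2. Microglial markers, 12 genes with none at 0, summed to 30714 to 36085, 22038 to 23885 and 18721 to 19441. Ribosomal protein genes took 9.82% to 10.8% of UMIs in Ctrl and 15.5% to 16.9% in D0 and D2. Markers of other cells did not all move the same way. Astroglial and border-associated macrophage markers were lower in both treated groups. In Ctrl, astroglial markers (9 genes, none at 0) summed to between 170 and 186 CPM. They lay between 83.0 and 109 in D0 and between 88.5 and 102 in D2. Border-associated macrophage markers (10 genes, none at 0) summed to between 220 and 274, 116 and 149, and 118 and 127 in the same order. Dendritic cell markers were higher in every treated library, at the values given with Nr4a2. Monocyte markers lay clear above Ctrl in D2 only, and neutrophil markers overlapped Ctrl in both treated groups. The part of these shifts in the members' differences was not tested. With the mitotic clusters left out, 7.31% of genes rose and 3.08% fell in D0, and the 5 rises stayed called (Fos 0.68 ± 0.14). Hes1 was the single fall still called (-1.49 ± 0.17), while Jun, Jund and Rhob kept their direction at the values given above.

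Same-numbered Ctrl and D0 libraries had correlated deviations over all genes, a pairing seen in these data and not stated in the labels. It was not exclusive, since Ctrl-3 went with D0-2 (r = 0.26) more than with D0-3 (r = 0.17). The calls with this block are thus no independent support. With the replicate number as a block, 14.2% of genes rose and 9.37% fell in D0. Under that fit 10 members rose and 6 fell. The 9 genes called without the block were among them, and 7 joined: Egr3 (0.89 ± 0.27, adjusted p = 0.0444), Ier3 (0.96 ± 0.26, adjusted p = 0.0327), Gadd45b (1.77 ± 0.34, adjusted p = 0.00872), Socs3 (0.75 ± 0.19, adjusted p = 0.0238) and Maff (1.81 ± 0.43, adjusted p = 0.0201) rose, and Klf4 (-0.76 ± 0.21, adjusted p = 0.0368) and Gadd45g (-1.09 ± 0.25, adjusted p = 0.0170) fell. With the Cell Ranger release as a term, where Ctrl-1 is the only Ctrl library of the older release, 9 members rose and 2 fell (Hes1 and Fosb), beside 8.74% and 2.80% of genes. Fos (0.39 ± 0.18), Jun (-0.33 ± 0.18), Jund (-0.38 ± 0.18) and Rhob (-0.23 ± 0.17) then had adjusted p values of 0.184, 0.252, 0.192 and 0.382. Fosl2, Ier2, Zfp36, Nr4a2 and Hes1 remained called.

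Single libraries weighed heavily on the D0 count of 5 rises and 4 falls. It was 2 and 1 without Ctrl-2, 3 and 1 without Ctrl-3, 2 and 2 without D0-2, and 13 and 2 without D0-1. Without Ctrl-1 it was 4 and 5. The D2 count of 3 rises and 5 falls became 1 and 3 without D2-1, 3 and 1 without D2-2, and 2 and 3 without Ctrl-2. With D2-3 included, the D0 count was 1 rise and 1 fall and the D2 count 1 and 2. The shares of all genes called in these fits are not given here. Whether the swing was particular to the members was therefore not judged. Nr4a2 and Hes1 were called in D0 in every one of the 24 other settings, Fosl2 in 23, Ier2 in 20, Fos in 18, Jund in 17, Rhob in 16, Zfp36 in 14 and Jun in 11. Among these settings, the Cell Ranger term rests on Ctrl-1 as its only Ctrl library.

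A separate question was how far libraries of the same condition agreed. For the medians and counts that follow, folds were taken on scaled CPM + 1, which narrows the span of scarce genes. Within Ctrl the median member spanned 1.73-fold from the lowest to the highest library, against 1.23-fold for the median of all genes, and 16 of 34 members spanned at least 2-fold, against 2.19% of genes. Within D0 the median member spanned 1.92-fold against 1.26-fold, and 13 members spanned 2-fold or more against 3.97% of genes. The pair of D2 libraries differed by 1.18-fold in the median member and 1.15-fold in the median gene. Taken without the + 1, Gdf15 was the widest member in both groups, at 8.17-fold in Ctrl and 8.06-fold in D0. Hspa1b (5.21 and 6.60), Gadd45b (6.53 and 4.32), Maff (4.76 and 5.15), Hspa1a (3.48 and 3.88) and Nr4a1 (3.38 and 3.89) also spanned more than 3-fold in each.

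The same libraries were low for most members. Ctrl-1 was the lowest Ctrl library for 28 of 34 members, against 49.2% of all genes, and D0-1 the lowest D0 library for 31, against 38.1%. Both held for 26 members (76.5%), where it held for 26.9% of genes. Ctrl-3 was the highest Ctrl library for 24 members and D0-2 the highest D0 library for 24, against 28.0% and 28.4% of genes. D2-3 lay below all 8 other libraries for 20 members, against 39.7% of genes, and above all 8 for none, against 34.7%. In cluster composition, 44.0% of the microglia-like cells of Ctrl-1 lay in cluster 3, against 1.71% to 12.4% in the other 7, and its mitochondrial share was 1.84% against 2.82% to 3.42%. The part of cluster make-up, depth or release in this ordering was not tested. When Ctrl-1 and D0-1 were both left out, a setting added after these values were seen and picked on the members' own levels, 14 members rose and 5 fell in D0, beside 13.8% and 10.9% of genes.

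The order of libraries was shared by other cell types for a few members. Ctrl-1 was lowest in all 5 cell types it could be judged in, and D0-1 in at least 5 of 6, for Hspa1a, Hspa1b, Gdf15 and Ier3, that is 4 of 34 members, against 65 of 12408 genes (0.524%). The 12408 genes passed the filter in microglia-like cells, and many were scarce in other types, with 4258 tested in mural-like cells. A library tied at 0 did not count as lowest, which holds down the share of all genes. Microglia-like cells, where both libraries were already seen to be low for most members, are among the types counted. In mural-like cells only Ctrl-3 and D0-3 stood beside them. Gdf15 was scarce outside microglia-like cells, at medians of 4.24 to 36.9 CPM. For Hspa1a in border-associated macrophage-like cells the plain CPM were 1072, 2835 and 1686 in Ctrl and 314, 2350 and 2787 in D0. In endothelial-like cells, which are not myeloid, they were 399, 1133 and 1683 in Ctrl and 258, 1820 and 1052 in D0. The low libraries of microglia-like cells were thus the low libraries there too. Hspa1b in endothelial-like cells was at 145, 850 and 1001 in Ctrl and 70.9, 1028 and 710 in D0. In neutrophil-like cells, Hspa1a was at 10.2 to 328 CPM and lowest of all 6 types.

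**Figure D3:**
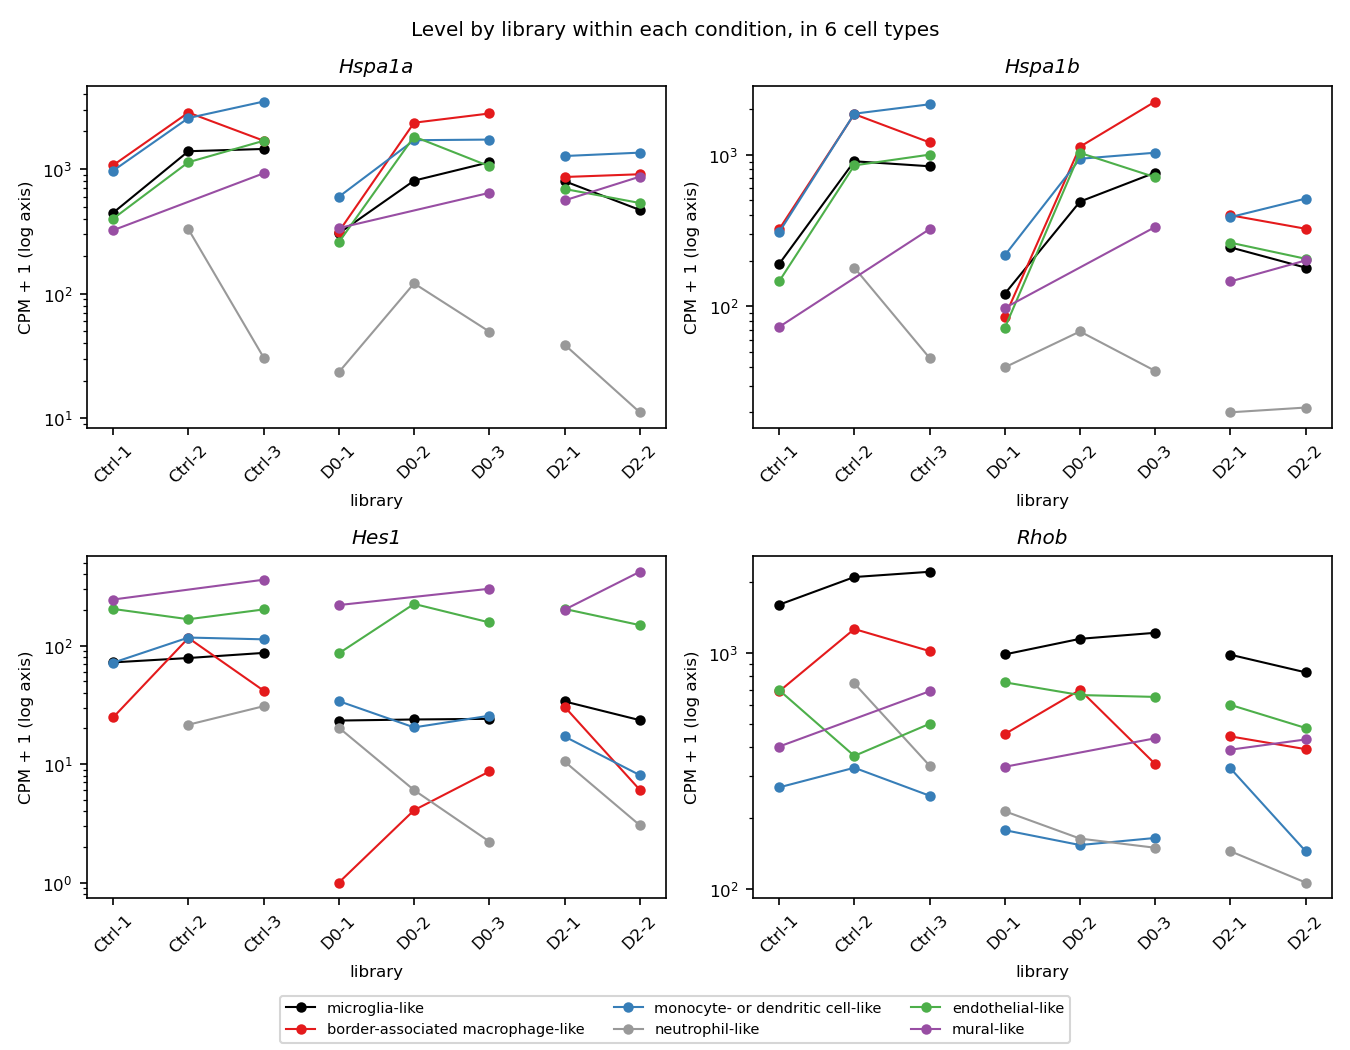
Plain CPM + 1 (log axis) of Hspa1a, Hspa1b, Hes1 and Rhob by library, 1 line per cell type and condition; D2-3 and types with under 20 cells in a library are left out. For Hspa1a and Hspa1b the lines of most types start low at Ctrl-1 and D0-1, while the microglia-like line of Hes1 is flat within Ctrl and within D0.

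Groups without overlap were then counted for single genes. All D0 libraries lay above all Ctrl libraries for 6 members, where 18.8% of genes did so, and below for 5, where 20% did. D0 and D2 together lay above Ctrl for 5 members (15.7% of genes) and below for 5 (15.3%). The 5 above were Fos, Fosl2, Ier2, Zfp36l1 and Nr4a2, and the 5 below were Jun, Jund, Klf4, Rhob and Hes1. These counts were taken on scaled CPM. Without TMM scaling, Fos and Zfp36l1 overlapped between Ctrl and D0.

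Microglia-like cells fell into 10 clusters, and the 8 that were not mitotic had cells enough for a comparison of Ctrl and D0. In 1 of them, cluster 9, only 2 of the D0 libraries stood. The library missing there was D0-1, the lowest D0 library for most members. Hes1 was lower in all D0 libraries than in all Ctrl libraries in 7 of the 8 clusters and Jun in 6. These 2 were the only members below Ctrl in at least 6 clusters, which held for 1.42% of genes. Zfp36 and Zfp36l1 were above Ctrl in 6, where 4.55% of genes were above in at least 6. Jun, Zfp36 and Zfp36l1 reached 6 only with cluster 9 counted. Ier2 was above in 5, and Fosl2, Dusp2, Nr4a2, Gadd45b and Maff in 4. Klf4 was below in 5, Jund in 3 and Rhob in 1, while Egr1, Hspa1a and Hspa1b overlapped in all 8. The shares of all genes at these other counts of clusters are not given here.

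Cluster 6, whose cells were placed without any of the 34 genes, carried most members at their highest. The members took 3.14% of its UMIs, against 1.32% to 2.05% in the other 9 clusters, and 23 of the 34 were highest there. The share of all genes highest in it is not given here. Genes other than the members that marked it included Csf1, Ccl2, Ccl3, Ccl4 and Tnf. Egr1 reached 961 CPM in it, 3.23 times the median cluster, and Fos 2026 CPM. Its share of microglia-like cells was 4.10%, 6.11% and 8.03% in Ctrl, 8.08%, 17.4% and 13.3% in D0, and 17.5% and 8.73% in D2, with no comparison drawn between groups, since genes that differ between the groups helped to draw the cluster. Hspa1a, Hspa1b and Rhob were highest in cluster 9, Hes1 and Gadd45g in cluster 1, and Nr4a2 in cluster 2, at 9.12 CPM against 0.636 to 5.42 elsewhere. The heat shock pair was lowest in the mitotic cluster 13, at 218 CPM for Hspa1a and 112 for Hspa1b.

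In single cells thinned to 2000 UMIs, the summed members had a median of 23, 33 and 36 UMIs per microglia-like cell in Ctrl, 21, 37 and 33 in D0, and 29 and 20 in D2. Within each group, though not across groups, the order of libraries seen in the sums was also that of the typical cell. In D2-3 the median was 2. Egr1 was read more often in cells that held Fos: it was found in 41.2% to 54.5% of cells with a Fos UMI and in 8.27% to 22.6% of cells without, over the 8 libraries. Hspa1b was read in 39.2% to 69.7% of cells with Hspa1a and in 6.10% to 19.7% of those without. Ier2 was read in 43.4% to 61.6% of cells with Egr1 and in 9.62% to 21.7% of those without. Not all pairs were so far apart. Gdf15 was read in 4.66% to 23.3% of cells with Nr4a1 and in 1.86% to 15.1% of those without. For Hes1 the shares were 3.45% to 10.3% of cells with Jun and 2.59% to 9.46% of those without. Thinned neutrophil-like cells gave the lowest shares of any type for Egr1, Hspa1a and Hes1. These were 4.53%, 7.48% and 0.738% of cells, against 26.0%, 36.0% and 6.30% of microglia-like cells. Other members went the other way. Neutrophil-like cells gave the highest shares of any type for Fos (75.9% against 37.6% of microglia-like cells) and Fosl2 (41.2% against 2.65%), among others.

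**Figure D4:**
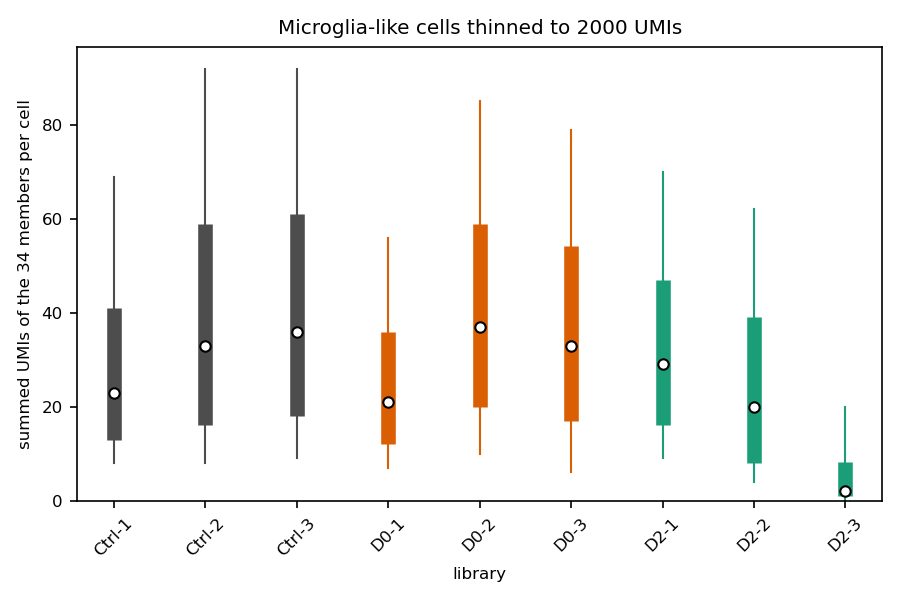
Summed UMIs of the 34 genes per microglia-like cell after thinning each cell to 2000 UMIs, by library: thin lines run from the 10th to the 90th percentile, thick bars from the 25th to the 75th, and circles mark medians. Medians run from 20 to 37 in 8 libraries and stand at 2 in D2-3.

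Across cell types, levels are given as plain CPM, as the median over libraries, and serve only to order the types for each gene. Monocyte- or dendritic cell-like cells had the highest level of 13 members, microglia-like cells of 9, endothelial-like cells of 6, and border-associated macrophage-like, neutrophil-like and mural-like cells of 2 each. The highest type was clear of the next, with no overlap between libraries, in 2 genes only: Rhob in microglia-like cells (1185 against 626 CPM in endothelial-like cells) and Klf4 in endothelial-like cells (726 against 243 in monocyte- or dendritic cell-like cells), where KLF4 is known as a regulator of quiescence. Klf2, its partner in endothelium, was at 2608 CPM there. Microglia-like cells were also highest in Jun (2211 CPM), Junb (2609), Egr1 (362), Ier3 (549), Ier5 (841), Gdf15 (150, with 36.9 in the next type), Socs3 (315) and Myc (42.7), but neighbouring types overlapped. Fos was highest in mural-like cells, at 2361 CPM, and stood at 898 CPM in microglia-like cells, with only endothelial-like cells lower. Fosl2 (248) and Gadd45b (431) were highest in neutrophil-like cells. Thinning each cell kept the top type of 29 members, and lifting the upper limit on UMIs kept that of 31. Fos was among those that changed on thinning, after which monocyte- or dendritic cell-like cells were its highest type.

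**Figure D5:**
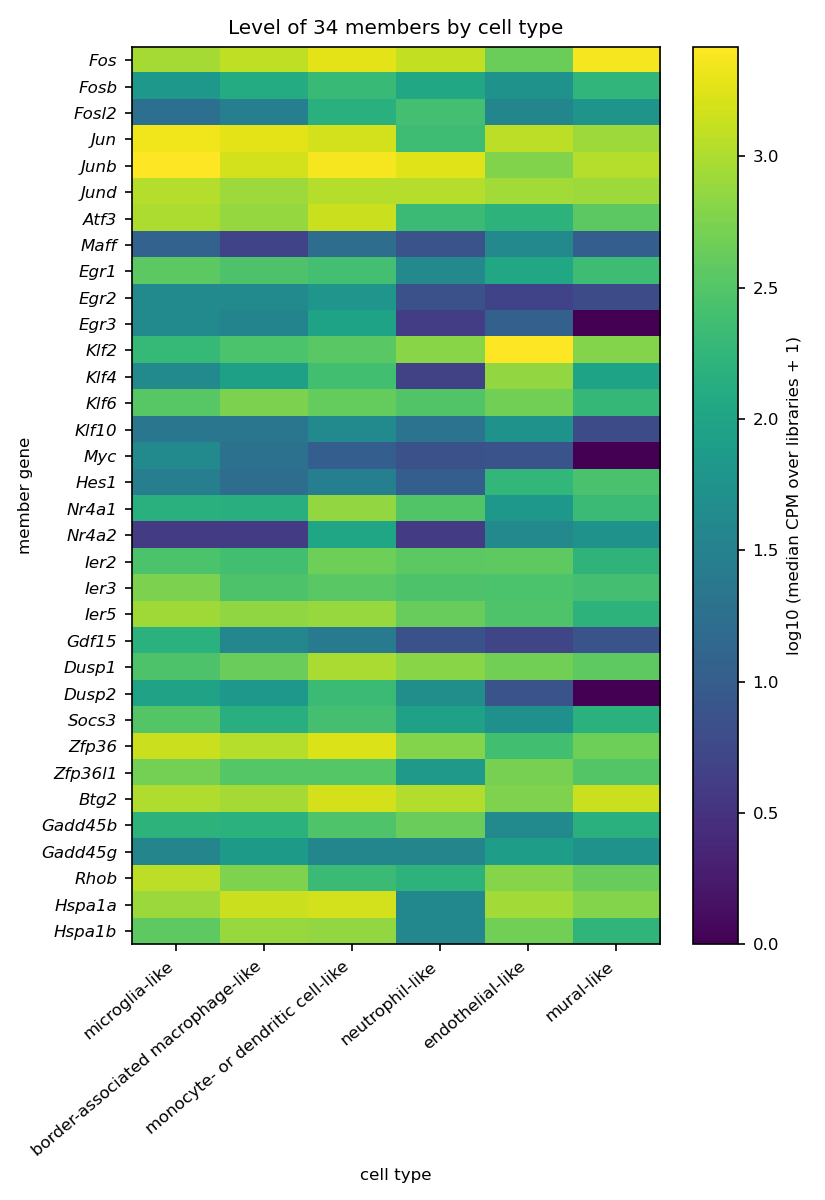
Heat map of log10 (median plain CPM over libraries + 1) of the 34 genes (lines) in 6 cell types (columns), to be read along each line. Rhob is brightest in microglia-like cells and Klf2 and Klf4 in endothelial-like cells. Endothelial-like cells are darkest for 11 genes, mural-like cells for 9 and neutrophil-like cells for 8.

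Changes within the other cell types rested on few cells, and few genes passed. In border-associated macrophage-like cells 32 members could be tested, and 0.687% of genes passed in D0 and 0% in D2. Klf2 fell there by 1.46 ± 0.28 in D0 (adjusted p = 0.0452), from 327, 530 and 363 CPM in Ctrl to 151, 117 and 138. In monocyte- or dendritic cell-like cells no gene passed in D0 (0%) and 0.0123% in D2, a single gene, which was Hes1 (-3.17 ± 0.38, adjusted p = 0.0400). Its CPM were 70.8, 116 and 112 in Ctrl, 33.0, 19.4 and 24.6 in D0, and 16.1 and 7.07 in D2, without overlap. In neutrophil-like cells 0.0878% of genes passed in D0 and 2.70% in D2, and among 28 members tested Rhob fell in D2 (-1.72 ± 0.33, adjusted p = 0.0284), from 743 and 332 CPM to 143 and 105. No member passed in endothelial-like cells (31 tested; 0.0122% of genes in D0 and 0.0611% in D2) or mural-like cells (27 tested; 0.0235% and 0.0939%). Few of these calls held in other settings: Klf2 was kept in 4 of 13 other settings, Hes1 in 4 of 13 and Rhob in 8 of 12.

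Whether a change differed from that of microglia-like cells of the same libraries was tested as an interaction with the library as a block. Against endothelial-like cells, where 3.19% of genes differed in D0 and 2.88% in D2, 6 members differed in D0 and 7 in D2. Hes1 in endothelial-like cells stood at 203, 166 and 201 CPM in Ctrl and 85.1, 224 and 156 in D0, and the difference of log2 changes was 1.25 ± 0.23 (adjusted p = 0.000745). Nr4a2 stayed between 22.6 and 47.2 CPM in both groups of endothelial-like cells, and its difference was -3.38 ± 0.63 (adjusted p = 0.000745). Klf4 (1.31 ± 0.23), Rhob (1.05 ± 0.24), Jund (0.89 ± 0.22) and Gadd45g (1.79 ± 0.34) differed in D0 as well, each with a lower change in microglia-like cells. In D2 the same 6 differed, and Klf2 in addition (1.67 ± 0.34).

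The other types gave fewer differences. Against border-associated macrophage-like cells (1.48% of genes in D0 and 0.793% in D2) they were Klf4 (1.18 ± 0.28) and Zfp36l1 (-0.97 ± 0.24) in D0 and Ier3 (-1.71 ± 0.35) and Zfp36l1 (-1.17 ± 0.28) in D2. Against monocyte- or dendritic cell-like cells (1.86% and 2.10%) Nr4a2 (-2.72 ± 0.38) and Nr4a1 (-1.08 ± 0.23) differed in D0, with Nr4a2 at 84.1, 73.3 and 200 CPM there in Ctrl and 99.8, 195 and 184 in D0. In D2 those 2 and Hes1 (-1.73 ± 0.34) differed. Against mural-like cells (1.03% and 1.13%) Hes1 (1.41 ± 0.33), Fosb (1.40 ± 0.37) and Ier2 (-1.28 ± 0.36) differed in D0, and Hes1, Klf2, Klf4 and Atf3 in D2. Against neutrophil-like cells (0.867% and 3.99%) Gadd45g (2.69 ± 0.52) and Myc differed in D0, the latter on 0 to 10 UMIs per library, and 7 members in D2. Neutrophil-like cells came from a mature and an immature cluster in shares that differed by library, and the part of this in the 7 was not tested.

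Genes of the neighbouring pathways, listed by function, were read in the same fit of microglia-like cells. Beside every list stand the shares of all genes in that fit. In D0 12.5% rose and 7.70% fell, and in D2 10.7% rose and 7.58% fell. Only the largest called changes of a list are named, and no list was tested as a set. Among other AP-1, serum response and CREB-linked factors, 5 of 17 tested rose in D0 and 0 fell (median 0.12), led by Egr4 (3.81 ± 1.10) and Bhlhe40 (3.35 ± 0.44), and 5 rose in D2. Of 18 NF-kappaB activation genes 4 rose in D0 (median 0.99), with Il1b at 3.11 ± 0.42 and Il1a at 1.59 ± 0.42, and 2 rose in D2. Of 10 p53 targets and GADD45 kin, 5 rose in D0 and 1 fell (median 0.47), with Phlda3 at 2.60 ± 0.58, Cdkn1a, the cell cycle inhibitor p21, at 2.51 ± 0.35 and Sesn1 at -0.51 ± 0.12, and 6 rose and 1 fell in D2. Of 16 other genes of the heat shock response, mostly chaperones, 1 rose in D0 (Hspe1, 0.93 ± 0.13) and 2 fell (Hsf1, which encodes a heat shock transcription factor, -0.44 ± 0.14, and the co-chaperone gene Dnajb4, -0.39 ± 0.12), with a median of -0.18, and 1 rose and 1 fell in D2.

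Of 8 ERK and p38 feedback genes 1 fell in D0 (Dusp6, -1.11 ± 0.28; median -0.38) and 2 fell in D2. Of 10 genes of the unfolded protein response 2 rose in D0 (Ppp1r15a, 0.73 ± 0.16, and Sdf2l1, 0.67 ± 0.17; median 0.08), and 1 rose and 1 fell in D2. Of 11 mRNA decay and antiproliferative kin of the members 3 rose in D0, with Socs2 at 2.23 ± 0.37 and Cish, like it an inhibitor of cytokine receptors, at 1.56 ± 0.40 (median 0.25), and 1 rose in D2. No gene of any list passed between D2 and D0, where no gene at all passed. Of the nuclear RNAs Malat1 and Neat1, read as a sign of RNA quality, Malat1 fell in D0 (-0.66 ± 0.13) and Neat1 rose in D2 (0.83 ± 0.21).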

How the data were processed

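The authors aligned reads of CD11b-sorted brain cells to the mouse genome (build mm10) with Cell Ranger, and deposited one filtered matrix of raw UMI counts per library, with no normalization. The submitters' processing notes name release 3.1.0 for all libraries, whereas 6 file headers name 3.0.2. A barcode was kept here with 200 genes or more, a UMI total of 500 to 20000 and a mitochondrial share of 10% or less; no doublet caller was run beyond that upper limit. Scanpy 1.11.5 clustered the kept barcodes of the 8 libraries on 3000 variable genes without the members (10 components, Leiden resolution 0.6), and marker lists named the clusters. Cells of D2-3, and barcodes above the upper UMI limit, took the commonest cluster among their 30 nearest neighbours. The border-associated macrophage-like class was a cluster at resolution 1.0 within the monocyte- or dendritic cell-like class. Counts were summed per library and class (at least 20 cells) and tested with edgeR 4.0.16 (R 4.3.3; TMM, filterByExpr, quasi-likelihood, 5 residual degrees of freedom, Benjamini-Hochberg over all genes, two-sided) in 1 fit of the 3 groups. All 34 members passed the filter in microglia-like cells. The study's own test took cells as samples. These p-values measure only the spread between libraries.

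Same-numbered Ctrl and D0 libraries had correlated deviations (r = 0.39, 0.23 and 0.17), a pairing seen in the data and not stated in the labels (Ctrl-3 with D0-2 gave 0.26), so the blocked values stand beside the D0 result; Ctrl and D2 gave 0.045 and 0.084. All 34 members are named whatever their values; of each other list at most the 2 largest rises and falls in D0 are named. The members, lists and alternatives were chosen with earlier results of these data known, and the tests were run on simulated data first. Promoter windows are RefSeq's. Alternatives covered DESeq2 1.42.0, scaling, filters, thinning, cell classes, left-out libraries and the Cell Ranger release.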

Additional observations from a re-analysis of the deposited data

Results flagged for a closer look

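The change of some members differed, by the interaction test in edgeR, between microglia-like cells and another cell type of the same libraries. In D0 against Ctrl there were 2 such members for border-associated macrophage-like cells, 6 for endothelial-like cells, 2 for monocyte- or dendritic cell-like cells, 3 for mural-like cells and 2 for neutrophil-like cells. In D2 against Ctrl there were 2, 7, 3, 4 and 7 in the same order. Of all genes, 1.48%, 3.19%, 1.86%, 1.03% and 0.867% differed in D0 and 0.793%, 2.88%, 2.10%, 1.13% and 3.99% in D2.

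The library D2-3, which entered no comparison, lay above all 3 Ctrl libraries in microglia-like cells for 3 members. Egr3 was at 52.0 scaled CPM there, Nr4a2 at 2.33 and Maff at 15.3. Ctrl ranged from 25.1 to 41.8, 0.133 to 0.756 and 2.13 to 10.1. In plain CPM, Egr3 in D2-3 was at 40.3, inside the Ctrl range of 26.2 to 44.3, while Nr4a2 (1.81) and Maff (11.9) still lay above Ctrl. In D2-3, Nr4a2 rested on 14 UMIs and Maff on 92. Of its 756 microglia-like cells only 71 lay outside the mitotic clusters, and the part of this in the 3 values was not tested.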

How the results depend on the processing

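Among the settings of microglia-like cells, the 9 members called in D0 became 18 with no filter on low counts, 16 with the replicate block and 2 with D2-3 included; leaving out each library in turn gave 3 to 15. The 8 called in D2 became 3 with D2-3 included, 5 with the Cell Ranger term and 4 to 11 with a library left out; the replicate block gave 7 there, on pairs that the data did not bear out, with Jun and Klf4 lost. Leaving out Ctrl-1 and D0-1 together, added after seeing the data and chosen on the members' own levels, gave 19 in D0, 18 in D2 and 7 between D2 and D0 in place of 0; these counts are no independent support. In other cell types the 1 call in D0 became 4 with DESeq2, 19 with no filter, 0 with D2-3 included, 0 with the Cell Ranger term and 0 to 4 with a library left out; the 2 in D2 became 9, 26 and 1 under DESeq2, no filter and the Cell Ranger term, 5 with upper-quartile scaling, 1 with at least 10 cells per library and 0 to 12 with a library left out. The 15 differences from microglia-like cells in D0 became 9 with DESeq2, 23 with no filter and 5 with D2-3 included, and the 23 in D2 became 11 with DESeq2 and 9 with D2-3 included. The Cell Ranger term was not run for the differences, where the library is already the block. Calls under that term rest on Ctrl-1 as the only Ctrl library of its release. The Zfp36l1 difference in neutrophil-like cells of D2, -1.58, ran from -2.59 to 0.936 with a library left out, turning positive without Ctrl-2, which left a single Ctrl library assumed to vary like the others. The cause was not tested. Of single-gene values under other settings, 676 kept their direction and side of the threshold and 215 kept the direction only. Except where given above, these counts of members stand without the share of all genes called under the same setting. The precision was limited by 5 residual degrees of freedom and, outside microglia-like cells, by few cells.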
